A study of Mus musculus with 24 samples.

Results

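The tumour suppressor p53 (encoded by Trp53 in mouse) and 9 genes that it activates were followed through 3 RNA-seq experiments on cultured mouse ovarian surface epithelial cells, the single cell layer that covers the ovary. The 10 genes were taken by name from the deposited expression tables: Trp53, Mdm2, Ccng1, Plk2, Bax, Bbc3, Phlda3, Trp53inp1, Eda2r and Zmat3. They are 10 of the 35687 genes listed for the monolayer and spheroid experiment and of the 35688 listed for each of the other experiments. All 10 passed the filter on low values in every experiment, although Eda2r did so in the BRCA1 experiment only through the control libraries.

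The series holds 24 libraries of poly(A)-selected RNA in 8 groups of 3, made to profile transcription linked to stemness in this epithelium. In the first experiment the line m1102 was grown as spheroids on low-attachment plates or as attached monolayers, in each case with TGFB1 (transforming growth factor beta 1) at 10 ng/mL or untreated. Spheroid cells received TGFB1 for 4 days before they were moved to low-attachment plates. In the second, m1102 cells carried a lentiviral Snail construct or the empty lentiviral vector WPI, and Snail is the epithelial repressor encoded by Snai1. In the third, cells of the line mOSE_BRCA1_fl, taken from mice with floxed Brca1 alleles, were infected with an adenovirus carrying Cre recombinase (BRCA1_ko) or GFP (BRCA1_wt). Both BRCA1 groups therefore carried the floxed alleles and an adenovirus. Each experiment used 1 line, and the share of cells that were transduced or recombined is not given in the sources used here. Nothing in the labels tells if replicate libraries came from separate cultures, and every p-value therefore measures the spread between these libraries, which may be technical.

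The p53 protein is a transcription factor that is kept scarce by MDM2 and accumulates when DNA is damaged or growth is otherwise stressed. It then switches on genes that stop division, open the mitochondrial death pathway, restrain survival signalling or turn p53 itself off again, and Mdm2 is both a target and the brake on the protein. Because p53 is controlled mainly at the level of the protein, its mRNA and the mRNAs of its targets are separate readouts. In ovarian cancers of the high-grade serous type, mutation of this gene is nearly universal, and inherited loss of BRCA1 function is a known risk.

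Promoter sequences from RefSeq (build GRCm38.p6) were searched for the p53 half-site, a motif of 10 letters that p53 binds in pairs and that reads the same on both strands. The windows ran from 250 bases before to 50 bases after each annotated start, and 8 of the 10 genes and Cdkn1a had at least 1 window. Trp53inp1 and Zmat3 had none. A perfect half-site was found for Trp53, Mdm2, Ccng1 and Bax, that is for 4 of the 8 genes, and for 9.55% of all 27025 genes with a window. A pair of half-sites was counted when the spacer was at most 13 bases and the pair held at most 2 mismatches outside the conserved C and G. Such a pair was found for Ccng1 and Bax, that is for 2 of the 8 genes, and for 4.71% of all genes with a window. A stretch just after each start was also looked for near the beginning of the gene's annotated transcripts. It was found in 0 of 2 transcripts for Phlda3 and in 0 of 4 for each Bbc3 window. For these genes the lack of a match therefore rests on starts that were not borne out. The sequences below are the 250 bases before the start, read 5′ to 3′ on the gene's strand. Capitals mark perfect half-sites and, in each window with a pair, 1 pair with the fewest mismatches. Other pairs within the limits are not marked. Bax and Ccng1 are shown because they carry a pair and fell in spheroids, Trp53 and Mdm2 because they are the factor and its brake, and Cdkn1a as the best known p53 target. Cdkn1a had 2 windows. The window shown lies upstream of the other, in which neither a half-site nor a pair was found.
Trp53, chr11:69580109-69580358, plus strand: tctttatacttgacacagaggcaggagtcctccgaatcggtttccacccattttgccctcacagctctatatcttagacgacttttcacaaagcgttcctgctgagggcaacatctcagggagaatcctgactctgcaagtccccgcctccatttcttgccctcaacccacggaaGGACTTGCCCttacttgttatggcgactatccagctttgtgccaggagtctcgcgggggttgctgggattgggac
Mdm2, chr10:117710759-117711008, minus strand: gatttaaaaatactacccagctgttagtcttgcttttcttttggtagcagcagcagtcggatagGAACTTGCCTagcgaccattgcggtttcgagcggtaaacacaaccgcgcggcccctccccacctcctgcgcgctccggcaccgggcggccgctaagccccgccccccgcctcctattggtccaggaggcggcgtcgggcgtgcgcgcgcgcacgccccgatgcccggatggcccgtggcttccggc
Ccng1, chr11:40755287-40755536, minus strand: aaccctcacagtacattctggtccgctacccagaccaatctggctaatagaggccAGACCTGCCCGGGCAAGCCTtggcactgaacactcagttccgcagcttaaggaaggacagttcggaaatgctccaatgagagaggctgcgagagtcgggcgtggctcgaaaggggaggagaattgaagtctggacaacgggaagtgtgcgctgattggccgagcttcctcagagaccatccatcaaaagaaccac
Bax, chr7:45466899-45467148, minus strand: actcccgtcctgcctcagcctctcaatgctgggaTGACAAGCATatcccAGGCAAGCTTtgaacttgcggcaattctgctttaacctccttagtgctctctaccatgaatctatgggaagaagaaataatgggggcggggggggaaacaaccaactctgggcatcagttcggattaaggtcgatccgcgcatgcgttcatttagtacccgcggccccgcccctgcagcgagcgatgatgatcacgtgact
Cdkn1a, chr17:29090729-29090978, plus strand: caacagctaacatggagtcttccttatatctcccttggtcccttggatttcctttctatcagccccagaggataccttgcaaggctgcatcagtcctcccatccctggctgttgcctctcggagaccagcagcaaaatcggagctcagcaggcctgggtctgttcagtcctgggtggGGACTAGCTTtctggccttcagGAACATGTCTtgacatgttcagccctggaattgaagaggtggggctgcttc
The marked pair of Ccng1 had no spacer and 1 mismatch, that of Bax a spacer of 5 bases and 2 mismatches, and that of Cdkn1a a spacer of 12 bases and no mismatch. In Cdkn1a the 10 letters directly after the second marked half-site also pair with it, with no spacer and 1 mismatch. In Bax the perfect half-site also pairs with letters after it, with a spacer of 1 base and 2 mismatches. A match describes letters in a window. It is not evidence of binding, and a window without one says only that these letters are not in it.

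Expression is given in the unit of the deposited matrices, which the authors named TPM. Their column sums are unequal, so the values were treated as TPM, an abundance per length, scaled by a factor per library that no file states, and are called scaled TPM. Levels are set beside each other within a table but not between the 3 tables. Column sums ranged over 955433 to 1166749 for monolayers and spheroids, 983449 to 1021026 for Snail and WPI, and 796668 to 1810667 for the BRCA1 experiment. The number of reads behind a value is unknown. Of 7 markers of ovarian surface epithelium, 6 had a group mean of at least 1 in untreated monolayers, with a summed level of 1443 to 1518, and the sum was 198 to 341 in untreated spheroids. Krt8, a keratin of simple epithelia, was at most 0.508 in the m1102 libraries. Of 5 leukocyte markers, 4 (Ptprc, Cd3e, Lyz2 and Itgam) had a mean under 1 in every group. The other, Cd68, was 11.5, 62.5 and 51.9 in TGFB1 spheroids and 65.8, 62.2 and 14.2 in untreated spheroids. It was 7.03 to 9.52 in TGFB1 monolayers and 17.7 to 25.3 in untreated monolayers. Snai1 was 234, 195 and 193 in Snail libraries, against 13.7, 10.1 and 9.81 in WPI libraries. Brca1 was 5.34, 11.1 and 4.09 in BRCA1_ko libraries, against 4.27, 12.3 and 3.66 in BRCA1_wt libraries (adjusted p = 0.904, limma). A value for the whole gene includes exons outside the floxed part, so it does not check the deletion. In bulk RNA, fewer cells of a kind and less RNA per cell cannot be told apart.

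Differences were tested with limma on log2(scaled TPM + 1), two-sided, with Benjamini-Hochberg adjustment over all genes tested in that table, and calls are those with an adjusted p under 0.05. Fold changes are on that log2 scale, which understates the change of genes at low levels. Phlda3 was called in 6 of the 7 comparisons, Trp53 and Plk2 in 4 each, and Trp53inp1 in 1. The comparisons within the monolayer and spheroid experiment share libraries, and the calls of Phlda3, Trp53 and Plk2 went in both directions.

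**Figure D1:**
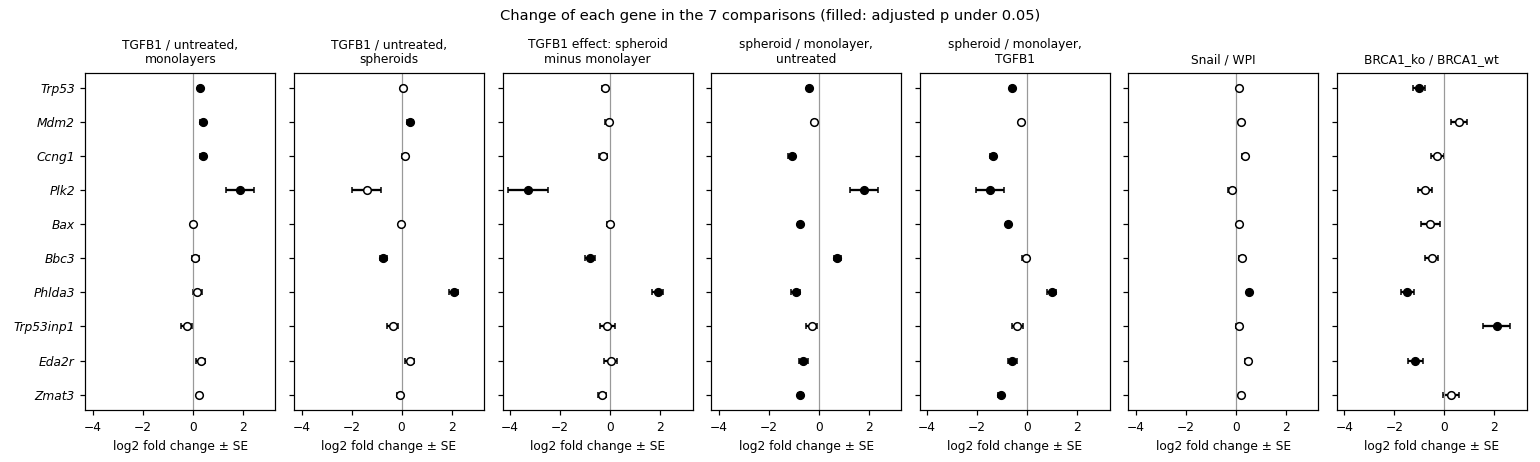
Log2 fold changes with their standard errors (horizontal axis) for the 10 genes (vertical axis) in the 7 comparisons, 1 panel each, with filled points for an adjusted p under 0.05. Phlda3 is filled in 6 of the 7 panels and the Snail panel holds no other filled point.

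The first comparison asked what TGFB1 did in attached cells. Trp53 itself, its inhibitor Mdm2 and the growth-control targets Ccng1 and Plk2 were higher in the TGFB1 monolayers, and no gene of the 10 was called lower. The increases of Trp53, Mdm2 and Ccng1 were small, 1.20-fold to 1.33-fold. In all, 4 of the 10 rose, against 9.12% of the 13509 genes tested, and 0 fell, against 7.79%. All 3 TGFB1 libraries lay above all 3 untreated ones for 7 of the 10, against 25.4% of the genes tested.

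Trp53 was 125, 120 and 115 scaled TPM in TGFB1 monolayers, against 104, 97.4 and 97.6 in untreated monolayers. The groups did not overlap, and the change was 0.26 ± 0.07 on the log2 scale (SE, n = 3 libraries per group, adjusted p = 0.0355, limma). Mdm2, the ubiquitin ligase that removes p53, was 103, 81.7 and 81.3 in TGFB1 monolayers, against 69.7, 62.8 and 68.9 in untreated monolayers. TGFB1 monolayer 1 was the highest library and the groups were again apart (log2 fold change 0.39 ± 0.11, adjusted p = 0.0327, limma). Ccng1 encodes cyclin G1, a regulator of growth arrest that recruits a phosphatase to MDM2. It was 211, 202 and 191 in TGFB1 monolayers, against 142, 155 and 155 in untreated monolayers (log2 fold change 0.41 ± 0.12, adjusted p = 0.0424, limma). Plk2, a polo-like kinase of the centrosome, was 299, 113 and 105 in TGFB1 monolayers, against 40.8, 36.7 and 45.7 in untreated monolayers. One library carried much of that difference, yet the lowest TGFB1 value was above every untreated value (log2 fold change 1.88 ± 0.56, adjusted p = 0.0434, limma).

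The death genes Bax and Bbc3 did not pass. Bax, which opens the outer mitochondrial membrane, averaged 231 ± 16.9 in TGFB1 monolayers and 232 ± 18.3 in untreated monolayers (SD, n = 3 each). Bbc3 encodes PUMA, a BH3-only activator of BAX, and averaged 20.4 ± 4.28 in TGFB1 monolayers and 18.9 ± 0.519 in untreated monolayers. Their tests gave no call (adjusted p = 0.967 and 0.739, limma). Phlda3, a competitor of AKT for membrane lipids, averaged 112 ± 10.5 in TGFB1 monolayers and 98.4 ± 4.98 in untreated monolayers (log2 fold change 0.18 ± 0.16, adjusted p = 0.513, limma). Zmat3, an RNA-binding zinc-finger protein, and Eda2r, a receptor of the TNF receptor family, had TGFB1 values above all untreated ones without passing (log2 fold changes 0.25 ± 0.10 and 0.30 ± 0.17, adjusted p = 0.118 and 0.267, limma). Trp53inp1, a nuclear protein that acts in p53-dependent death and autophagy, had a log2 fold change of -0.25 ± 0.22 (adjusted p = 0.492, limma).

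These 4 calls rested on small margins. With any 1 of the 6 libraries left out, 0 or 1 of the 10 was called. Ccng1, Plk2 and Trp53 passed in none of those fits, with adjusted p of 0.0666 to 0.134 for Ccng1, 0.0522 to 0.165 for Plk2 and 0.0523 to 0.118 for Trp53. Mdm2 passed without TGFB1 monolayer 2 or 3 and reached 0.114 without TGFB1 monolayer 1 or untreated monolayer 2. The labels of untreated monolayers 1 and 2 name the same earlier sample, although their values differ (r = 0.991).

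Of 60 other genes of the pathway, 54 were tested, and 11 rose and 2 fell with TGFB1 in monolayers. The median log2 fold change was 0.26 over the 10 genes and 0.01 over all genes tested. No group of genes was tested as a whole in any comparison, and its counts stand beside the share of all genes tested. Cdkn1a, the p21 inhibitor of cyclin-dependent kinases, was 227, 156 and 155 in TGFB1 monolayers, against 99.7, 74.2 and 86.1 in untreated monolayers (log2 fold change 1.03 ± 0.25, adjusted p = 0.0169, limma). Its call was lost without TGFB1 monolayer 1 (adjusted p = 0.0723) and without untreated monolayer 2 or 3 (0.0688 and 0.0547). The largest increases among these genes were in Ppp1r13l, the inhibitory ASPP protein that restrains p53 (1.93 ± 0.24), and Hipk2, a kinase of p53 (1.21 ± 0.11). Of the 9 tested growth-arrest targets 4 rose (Cdkn1a, Gdf15, Gadd45a and Ddit4) and 0 fell, and of the 7 tested death-gene targets 3 rose (Tnfrsf10b, Pidd1 and Apaf1) and 1 fell, beside 9.12% higher and 7.79% lower of all genes. The calls in the other direction were Fas, a death receptor (-0.73 ± 0.19, adjusted p = 0.0247), and Tigar, a fructose bisphosphatase (-0.40 ± 0.12, adjusted p = 0.0449). Both were lost without TGFB1 monolayer 1 (0.0993 and 0.162) and without any 1 untreated library (0.066 to 0.134), and Tigar also without TGFB1 monolayer 2 or 3 (0.0829 and 0.0586). None of the 14 tested BCL2 family and caspase genes was called. The summed epithelial markers were 727 to 1011 in TGFB1 monolayers and 1443 to 1518 in untreated monolayers, and the summed fibroblast and stroma markers were 723 to 856 in TGFB1 monolayers and 1234 to 1454 in untreated monolayers. The part of either, or of Cd68, in these values was not tested.

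**Figure D2:**
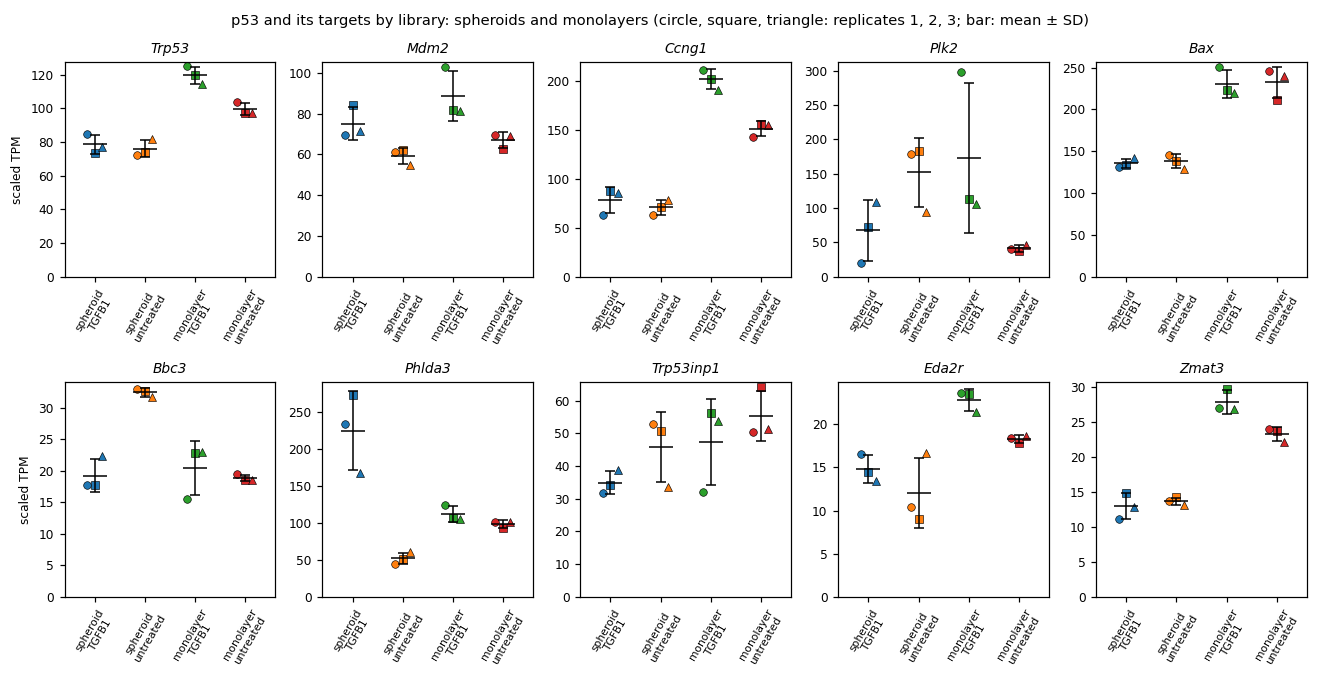
Scaled TPM (vertical axes, from 0) of the 10 genes in the 4 groups of the monolayer and spheroid experiment, with 1 point per library (circle, square and triangle for replicates 1, 2 and 3) and bars for the mean ± SD of 3 libraries. Phlda3 is highest in TGFB1 spheroids, Bbc3 is highest in untreated spheroids, and Trp53, Ccng1, Bax and Zmat3 are lower in both spheroid groups than in both monolayer groups.

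The second comparison set untreated spheroids against untreated monolayers. Trp53 and 5 of its targets (Ccng1, Bax, Phlda3, Eda2r and Zmat3) were lower in spheroids, Bbc3 and Plk2 were higher, and Mdm2 and Trp53inp1 did not pass. Thus 2 of the 10 rose, against 27.6% of the genes tested, and 6 fell, against 27.7%. The median log2 fold change was -0.50 over the 10 genes and 0.01 over all genes tested. All monolayer libraries are titled as re-analysed and no spheroid library is, so the effects of culture and of the origin of the libraries cannot be told apart, here and wherever spheroids are set against monolayers.

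Ccng1 was 62.9, 71.5 and 78.1 in untreated spheroids, against 142, 155 and 155 in untreated monolayers, the largest decrease of the 10 on the log2(scaled TPM + 1) scale. The groups were far apart (log2 fold change -1.09 ± 0.12, adjusted p = 3.12e-05, limma). Bax was 146, 138 and 129 in untreated spheroids, against 245, 212 and 240 in untreated monolayers (log2 fold change -0.75 ± 0.08, adjusted p = 2.58e-05, limma). Phlda3 was 44.5, 50.4 and 60.2 in untreated spheroids, against 102, 92.6 and 101 in untreated monolayers. Every spheroid value of these 3 genes was below every monolayer value, and Phlda3 differed by -0.92 ± 0.16 on the log2 scale (adjusted p = 0.000701, limma). Trp53 was 72.5, 74.2 and 81.9 in untreated spheroids, against 104, 97.4 and 97.6 in untreated monolayers (log2 fold change -0.38 ± 0.07, adjusted p = 0.00129, limma). Zmat3 fell by 0.73 on the log2 scale (SE 0.10, adjusted p = 0.000118, limma) and Eda2r fell by 0.61 (SE 0.17, adjusted p = 0.0112, limma). Eda2r was the more scattered of the pair, since untreated spheroid 3 reached 16.7 while the others were 10.4 and 9.01.

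Bbc3 went the other way from its partner Bax. It was 33.1, 32.7 and 31.7 in untreated spheroids, against 19.5, 18.6 and 18.6 in untreated monolayers, with little scatter in either group (log2 fold change 0.75 ± 0.14, adjusted p = 0.000973, limma). Plk2 was 179, 183 and 93.9 in untreated spheroids, against 40.8, 36.7 and 45.7 in untreated monolayers (log2 fold change 1.81 ± 0.56, adjusted p = 0.0182, limma). Untreated spheroid 3 stood apart, but lay above all monolayers. The Plk2 call was lost without untreated monolayer 2 (adjusted p = 0.0524) or untreated spheroid 1 or 2 (0.059 and 0.0596). Mdm2 averaged 59.4 ± 3.94 in untreated spheroids and 67.1 ± 3.74 in untreated monolayers (SD, n = 3 each, adjusted p = 0.197, limma).

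Cdkn1a also rose, at 170, 214 and 194 in untreated spheroids, against 99.7, 74.2 and 86.1 in untreated monolayers (log2 fold change 1.15 ± 0.25, adjusted p = 0.00228, limma). Among the 54 other tested pathway genes 18 rose and 17 fell, with a median log2 fold change of 0.02. Of the 7 tested death-gene targets 0 rose, beside 27.6% of all genes, and 5 fell, beside 27.7%. They were Pmaip1, the BH3-only protein NOXA (-1.60 ± 0.19), Tnfrsf10b, Aen, Ei24 and Pidd1. Of 17 regulators of p53, 9 rose and 4 fell, beside the same shares, with Hipk2 the most increased (1.87 ± 0.11) and Chek2, a DNA damage checkpoint kinase, the most decreased (-2.48 ± 0.21). Ddit4, an inhibitor of mTORC1, rose by 1.69 ± 0.14, Bcl2l1, the survival protein BCL-XL, rose by 1.32 ± 0.10, and Tigar fell by 1.97 (SE 0.12). All 6 of these named changes had adjusted p of at most 3.85e-05 (limma). Genes of dividing cells were far lower in the same spheroids, with Mki67 at 0.949 to 1.26 in untreated spheroids and 25.1 to 33.7 in untreated monolayers, and the summed epithelial markers were lower as given above. The summed fibroblast and stroma markers were 244 to 263 in untreated spheroids and 1234 to 1454 in untreated monolayers, and Cd68 was above every monolayer in 2 of the 3 spheroid libraries. The part of any of these in the p53 target values was not tested.

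The third comparison asked what TGFB1 did in spheroids. Phlda3 rose 4.23-fold, Mdm2 rose 1.26-fold and Bbc3 fell, while Trp53, Ccng1, Bax, Zmat3, Eda2r, Trp53inp1 and Plk2 did not pass. So 2 of the 10 rose, against 18.8% of the genes tested, and 1 fell, against 16.8%. Phlda3 was 234, 273 and 167 scaled TPM in TGFB1 spheroids, against 44.5, 50.4 and 60.2 in untreated spheroids. The groups were far apart (log2 fold change 2.08 ± 0.16, adjusted p = 9.76e-06, limma). Bbc3 was 17.8, 17.7 and 22.3 in TGFB1 spheroids, against 33.1, 32.7 and 31.7 in untreated spheroids (log2 fold change -0.73 ± 0.14, adjusted p = 0.00254, limma). TGFB1 spheroids thus lay in the range of the monolayers for Bbc3. Mdm2 was 69.5, 84.4 and 71.6 in TGFB1 spheroids, against 61.4, 61.9 and 54.9 in untreated spheroids. The groups did not overlap (log2 fold change 0.33 ± 0.11, adjusted p = 0.0353, limma), but the call was lost without any 1 untreated spheroid (0.0572 to 0.0939) or without TGFB1 spheroid 2 (0.137). With each library scaled to an equal sum it was 0.15 (adjusted p = 0.253).

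Plk2 was 20.0, 72.9 and 109 in TGFB1 spheroids, against 179, 183 and 93.9 in untreated spheroids. The groups overlapped through library 3 of each, and the change missed the threshold (log2 fold change -1.40 ± 0.56, adjusted p = 0.0748, limma). It passed without TGFB1 spheroid 3 (-1.89, adjusted p = 0.0243) and with equal sums (-1.59, adjusted p = 0.0375), a scaling under which Zmat3 passed as well (-0.25, adjusted p = 0.0397). Trp53 averaged 78.6 ± 5.53 in TGFB1 spheroids and 76.2 ± 4.995 in untreated spheroids (SD, n = 3 each), and Bax 135 ± 5.56 in TGFB1 spheroids and 138 ± 8.36 in untreated spheroids. These 2 genes overlapped between groups (adjusted p = 0.68 and 0.854, limma). Eda2r passed without untreated spheroid 3 (0.56, adjusted p = 0.00272) and Ccng1 without TGFB1 spheroid 1 (0.28, adjusted p = 0.0397).

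Cdkn1a was 176, 364 and 308 in TGFB1 spheroids, against 170, 214 and 194 in untreated spheroids (log2 fold change 0.49 ± 0.25, adjusted p = 0.143, limma). Without TGFB1 spheroid 1, the low library, it passed (0.80, adjusted p = 0.00872). Of the 54 other pathway genes 9 rose, beside 18.8% of all genes, and 12 fell, beside 16.8%, with a median log2 fold change of -0.06. Of the 14 tested BCL2 family and caspase genes 3 rose and 5 fell, beside the same shares. Bcl2l11, the BH3-only protein BIM, rose by 1.47 ± 0.19, and Pmaip1 rose by 1.20 ± 0.19. Bok, a BAX-like effector, fell by 1.74 (SE 0.26) and Bcl2l2, the survival protein BCL-w, by 0.90 (SE 0.10). Ppp1r13l rose by 1.08 ± 0.24, as it did in TGFB1 monolayers. Sesn1, a stress-induced inhibitor of mTORC1, fell by 1.34 (SE 0.40, adjusted p = 0.023, limma), a call lost without any 1 untreated spheroid (0.0515 to 0.0552) or TGFB1 spheroid 2 (0.0918). The summed level of 4 endothelial markers was 25.8 to 52.3 in TGFB1 spheroids and 1.76 to 5.61 in untreated spheroids. In TGFB1 spheroids Cdh5 made up nearly all of it, and in untreated spheroids Cdh5 and Pecam1 together did. Kdr and Tek were near 0 in both groups. The summed fibroblast and stroma markers were 404 to 1079 in TGFB1 spheroids and 244 to 263 in untreated spheroids. Mki67 was 1.71 to 1.95 in TGFB1 spheroids and 0.949 to 1.26 in untreated spheroids. The part of any of these in the changes was not tested.

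The fourth comparison set TGFB1 spheroids against TGFB1 monolayers. It shares its libraries with the comparisons above and is given for the values of the members and Cdkn1a only. Trp53, Ccng1, Bax, Zmat3, Eda2r and Plk2 fell and Phlda3 rose, that is 6 of the 10 fell, against 26.5% of the genes tested, and 1 rose, against 25.3%. Ccng1 was 62.8, 87.1 and 85.2 in TGFB1 spheroids, against 211, 202 and 191 in TGFB1 monolayers (log2 fold change -1.36 ± 0.12, adjusted p = 5.87e-06, limma). Zmat3 was 11.2, 14.8 and 12.9 in TGFB1 spheroids, against 27.0, 29.8 and 26.8 in TGFB1 monolayers (log2 fold change -1.05 ± 0.10, adjusted p = 8.45e-06, limma). Both genes were lower in every spheroid library. Trp53 fell by 0.60 (SE 0.07, adjusted p = 6.15e-05), Bax by 0.76 (SE 0.08, adjusted p = 2.24e-05) and Eda2r by 0.60 (SE 0.17, adjusted p = 0.0141), all in limma. Phlda3 was 234, 273 and 167 in TGFB1 spheroids, against 124, 107 and 105 in TGFB1 monolayers. Its direction was thus opposite to that between the untreated groups (log2 fold change 0.98 ± 0.16, adjusted p = 0.000523, limma). Plk2 passed narrowly although its libraries overlapped (log2 fold change -1.47 ± 0.56, adjusted p = 0.0471, limma), and not without TGFB1 monolayer 1 or 2 (0.176 and 0.0555) or TGFB1 spheroid 1 or 2 (0.164 and 0.0552). Trp53inp1 passed only without TGFB1 monolayer 1 (-0.65, adjusted p = 0.0168) and Mdm2 only without TGFB1 spheroid 2 (-0.32, adjusted p = 0.0394), among the fits that left out a library. With equal sums Mdm2 also passed (-0.41, adjusted p = 0.00459). Bbc3 did not pass (log2 fold change -0.07 ± 0.14, adjusted p = 0.712, limma). Cdkn1a missed the threshold (0.61, adjusted p = 0.0564, limma), and passed without TGFB1 monolayer 1 or TGFB1 spheroid 1 (0.028 and 0.00223). Of the 54 other pathway genes 14 rose and 18 fell. Mki67 was 1.71 to 1.95 in TGFB1 spheroids and 30.9 to 34.8 in TGFB1 monolayers, and its part in these values was not tested.

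The levels of Trp53 followed the order TGFB1 monolayers, untreated monolayers, then both spheroid groups, whose libraries overlapped. The order of Phlda3 was TGFB1 spheroids, then the 2 monolayer groups, whose difference did not pass, then untreated spheroids. Bbc3 was highest in untreated spheroids, and the other 3 groups overlapped.

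The interaction tested directly whether the TGFB1 response differed between spheroids and monolayers. It was called for Phlda3 upward and for Bbc3 and Plk2 downward, that is for 1 of the 10 higher, against 8.72% of the genes tested, and for 2 lower, against 7.11%. Spheroid cells had TGFB1 for 4 days before transfer, and no duration is given here for monolayers. The monolayer libraries, treated and untreated, are titled as re-analysed and the spheroid libraries are not. In this difference the effects of culture, treatment schedule and origin of the libraries therefore cannot be told apart. For Phlda3 the TGFB1 effect was 2.08 ± 0.16 in spheroids and 0.18 ± 0.16 in monolayers, a difference of 1.90 ± 0.23 (adjusted p = 0.000591, limma). For Plk2 it was -1.40 ± 0.56 in spheroids and 1.88 ± 0.56 in monolayers, a difference of -3.28 ± 0.80 (adjusted p = 0.0186, limma). For Bbc3 it was -0.73 ± 0.14 in spheroids and 0.09 ± 0.14 in monolayers, a difference of -0.82 ± 0.20 (adjusted p = 0.0186, limma). The Bbc3 call was lost without TGFB1 monolayer 2 (-0.73, adjusted p = 0.0501). With equal sums Trp53 (-0.44, adjusted p = 0.0429), Ccng1 (-0.50, adjusted p = 0.0358) and Zmat3 (-0.54, adjusted p = 0.0129) passed as well. For Mdm2 the effect was 0.33 ± 0.11 in spheroids and 0.39 ± 0.11 in monolayers, a difference of -0.06 ± 0.15 (adjusted p = 0.839), which does not show that they are equal. Of the other 54 pathway genes 4 were called higher and 8 lower, with Bcl2l11 (1.74 ± 0.27), Bok (-1.83 ± 0.37) and Gdf15 (-1.79 ± 0.35) the largest. The Tigar difference (0.65 ± 0.17, adjusted p = 0.028) was lost in 7 of the 12 fits that left out a library (0.0512 to 0.068), and that of Cop1, a ubiquitin ligase of p53 (0.45 ± 0.11, adjusted p = 0.0191), without untreated monolayer 3 (0.0558). With each library scaled to an equal sum, the interaction of Cop1 was 0.22 (adjusted p = 0.184) and that of Tigar 0.44 (adjusted p = 0.0919). Hipk2 differed by -0.93 ± 0.15 (adjusted p = 0.00277, limma). Bax, Eda2r and Trp53inp1 were not called (adjusted p = 0.957, 0.972 and 0.855, limma), nor was Cdkn1a (-0.54, adjusted p = 0.332, limma).

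The fifth comparison asked what forced Snail expression did. Phlda3 was the gene of the 10 that passed, and the rest had small differences that mostly pointed upward. So 1 of the 10 rose, against 0.572% of the 12240 genes tested, and 0 fell, against 1.14%. All 3 Snail libraries lay above all 3 WPI libraries for 7 of the 10, against 9.70% of the genes tested. Phlda3 was 164, 178 and 178 in Snail libraries, against 118, 124 and 120 in WPI libraries. The change was 1.43-fold with tight groups (log2 fold change 0.52 ± 0.05, adjusted p = 0.00719, limma). Without Snail library 2 the adjusted p was 0.0538. The authors' deposited table gives Phlda3 a q-value of 1.15e-11 and a coefficient of 0.52 after conversion to log2.

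Eda2r was 30.2, 33.8 and 37.8 in Snail libraries, against 21.1, 27.2 and 23.9 in WPI libraries (log2 fold change 0.48 ± 0.11, adjusted p = 0.0935, limma). Ccng1 was 199, 230 and 247 in Snail libraries, against 160, 184 and 182 in WPI libraries (log2 fold change 0.36 ± 0.09, adjusted p = 0.115, limma). Both genes had groups that did not overlap. Mdm2 averaged 102 ± 4.48 in Snail libraries and 88.9 ± 3.64 in WPI libraries, and Zmat3 averaged 28.0 ± 1.33 in Snail libraries and 24.3 ± 0.131 in WPI libraries (SD, n = 3 each). They missed the threshold at adjusted p = 0.164 and 0.210 (limma). Trp53 averaged 113 ± 4.24 in Snail libraries and 103 ± 5.02 in WPI libraries, and Bbc3 averaged 24.4 ± 1.29 in Snail libraries and 20.7 ± 3.51 in WPI libraries (adjusted p = 0.366 and 0.442, limma). Bax, Trp53inp1 and Plk2 overlapped between the groups, with log2 fold changes of 0.13 ± 0.08, 0.14 ± 0.13 and -0.16 ± 0.15. Cdkn1a was 183, 202 and 242 in Snail libraries, against 132, 167 and 120 in WPI libraries (log2 fold change 0.58, adjusted p = 0.0985, limma). The authors' deposited table gives q-values of 0.0292 for Eda2r, 0.0468 for Cdkn1a, 0.0688 for Ccng1 and 0.159 for Mdm2. None of the other 54 tested pathway genes was called by limma. Mki67 was 49.2 to 60.2 in Snail libraries and 52.4 to 61.4 in WPI libraries.

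**Figure D3:**
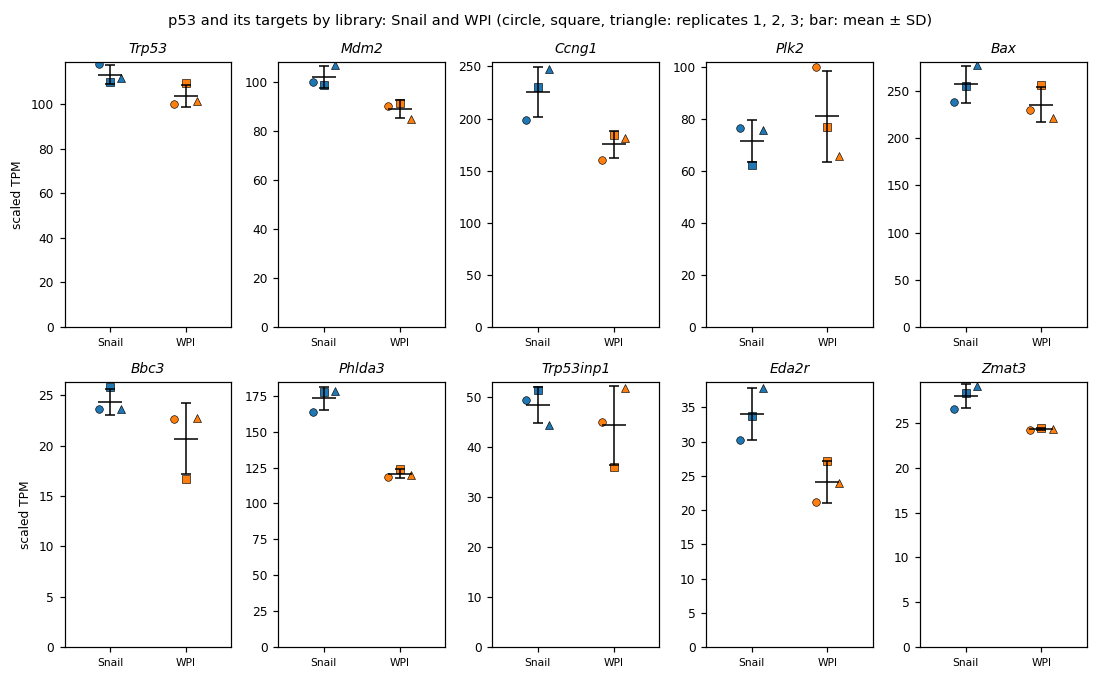
Scaled TPM (vertical axes, from 0) of the 10 genes in Snail and WPI libraries, with 1 point per library (circle, square and triangle for replicates 1, 2 and 3) and bars for the mean ± SD of 3 libraries. Phlda3 shows the widest gap, at 164 to 178 in Snail libraries and 118 to 124 in WPI libraries.

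The last comparison set BRCA1_ko against BRCA1_wt cells. Trp53 and Phlda3 were lower in BRCA1_ko cells, Trp53inp1 was higher, and Mdm2, Ccng1, Plk2, Bax, Bbc3 and Zmat3 did not pass. Eda2r was at 1 or more in BRCA1_wt libraries alone, so the filter fixed its direction and its call is not counted here. Of the other 9 genes 2 fell, against 4.73% of the 12318 genes at 1 or more in at least 1 library of each group, and 1 rose, against 7.21%. Over all 12775 genes tested the shares were 5.27% lower and 9.04% higher. The median log2 fold change was -0.51 over the 9 genes and 0.15 over the 12318. These calls depended on single libraries of both groups and on the scaling. BRCA1_wt library 2 correlated with the other controls at 0.866 and 0.917, while those 2 correlated with each other at 0.979, and the column sums of the 3 controls were 1217651, 796668 and 1810667, against 819962, 823502 and 843146 in BRCA1_ko.

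Trp53 was 70.2, 73.9 and 55.1 scaled TPM in BRCA1_ko libraries, against 148, 105 and 156 in BRCA1_wt libraries. The groups did not overlap (log2 fold change -1.02 ± 0.25, adjusted p = 0.0405, limma). Phlda3 was 7.79, 8.32 and 7.48 in BRCA1_ko libraries, against 27.4, 17.4 and 28.0 in BRCA1_wt libraries (log2 fold change -1.48 ± 0.26, adjusted p = 0.0164, limma). Its BRCA1_ko values were tightly grouped and below every control. Eda2r was 0.267, 0.222 and 0.307 in BRCA1_ko libraries, against 1.59, 3.27 and 1.03 in BRCA1_wt libraries, and is described by these levels only. Trp53inp1 was 25.5, 24.0 and 19.4 in BRCA1_ko libraries, against 3.16, 12.5 and 2.02 in BRCA1_wt libraries. The groups did not overlap, with BRCA1_wt library 2 nearest to BRCA1_ko (log2 fold change 2.10 ± 0.54, adjusted p = 0.0457, limma).

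For several genes BRCA1_wt library 2 lay nearer to the BRCA1_ko libraries than the other controls did. For Ccng1, Plk2 and Eda2r it was the control farthest from them, with Plk2 at 53.4 in that library and 32.2 and 34.8 in BRCA1_wt libraries 1 and 3. Mdm2 was 62.8, 44.5 and 68.8 in BRCA1_ko libraries, against 36.2, 55.9 and 26.4 in BRCA1_wt libraries (log2 fold change 0.60 ± 0.32, adjusted p = 0.191, limma). Bax was 133, 112 and 144 in BRCA1_ko libraries, against 222, 109 and 286 in BRCA1_wt libraries (log2 fold change -0.56 ± 0.37, adjusted p = 0.27, limma). In both genes the overlap came from BRCA1_wt library 2. Without that library 8 of the 10 were called, Eda2r included, and over all genes 8420 rather than 1828. The added calls were Mdm2 (0.88, adjusted p = 0.0145), Bax (-0.96, adjusted p = 0.00395), Zmat3 (0.58, adjusted p = 0.0238) and Plk2 (-0.56, adjusted p = 0.0381). With any BRCA1_ko library or BRCA1_wt library 1 left out, 0 of the 10 were called, with adjusted p of 0.0578 to 0.104 for Phlda3, 0.09 to 0.181 for Trp53 and 0.12 to 0.184 for Trp53inp1. Without BRCA1_wt library 3 Phlda3 passed, with 0.101 for Trp53 and 0.104 for Trp53inp1.

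With each library scaled to an equal sum, the median of all genes moved by 0.46 on the log2 scale and 0 of the 10 were called. Trp53 was then -0.48 (adjusted p = 0.233), Phlda3 -0.98 (adjusted p = 0.104) and Trp53inp1 2.50 (adjusted p = 0.0827). Relative to the median of all genes, Trp53 was -1.19 as deposited and -1.11 with equal sums. Ccng1 turned, at -0.28 as deposited and 0.22 with equal sums, neither of them called. The authors' deposited table gives q-values of 0.00151 for Trp53, 1.56e-06 for Phlda3, 0.0188 for Trp53inp1, 0.0064 for Plk2 and 0.564 for Mdm2.

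**Figure D4:**
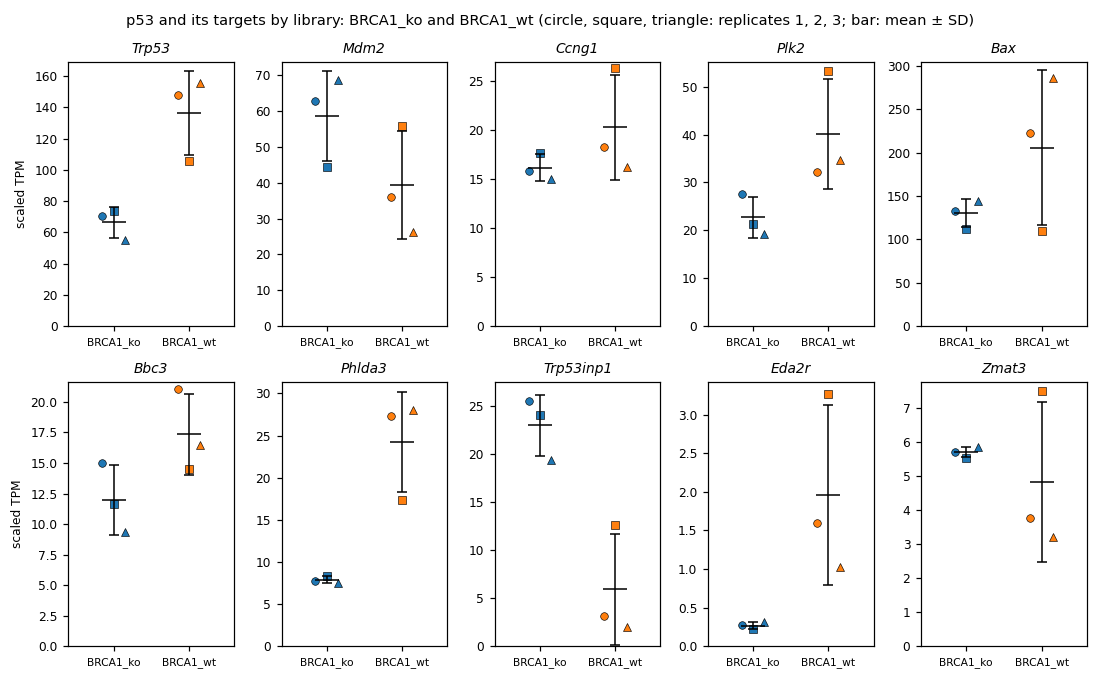
Scaled TPM (vertical axes, from 0) of the 10 genes in BRCA1_ko and BRCA1_wt libraries, with 1 point per library (circle, square and triangle for replicates 1, 2 and 3) and bars for the mean ± SD of 3 libraries. Phlda3 is 7.48 to 8.32 in BRCA1_ko and 17.4 to 28.0 in BRCA1_wt libraries, and BRCA1_wt library 2 (square) is the control nearest to the BRCA1_ko values for Trp53, Bax, Phlda3 and Trp53inp1. The same library is the farthest control for Ccng1, Plk2 and Eda2r.

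**Figure D5:**
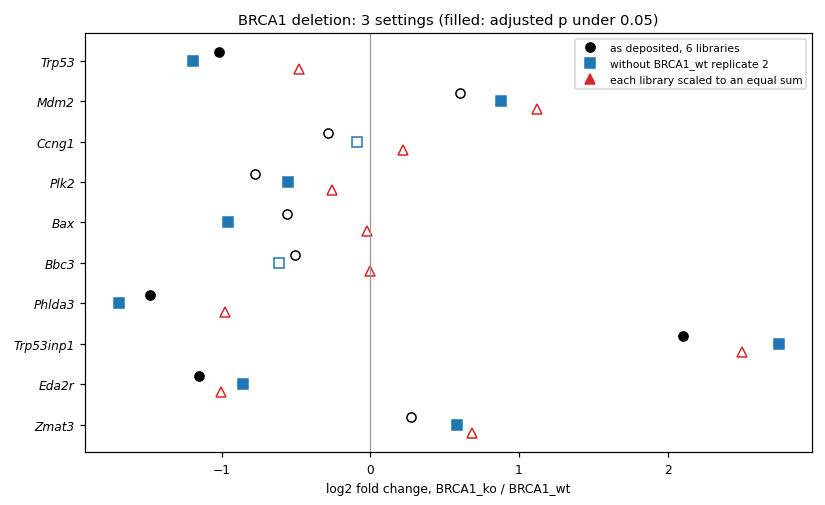
Log2 fold change of BRCA1_ko over BRCA1_wt (horizontal axis) for the 10 genes (vertical axis) as deposited (circles), without BRCA1_wt library 2 (squares) and with each library scaled to an equal sum (triangles), filled at an adjusted p under 0.05. The numbers of filled points are 4, 8 and 0, with Eda2r, whose direction the filter fixed, among the 4 and the 8.

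Cdkn1a was 0.696, 0.713 and 0.857 in BRCA1_ko libraries, against 6.49, 4.95 and 5.51 in BRCA1_wt libraries. Like Eda2r it passed the filter through the controls alone, and Hrk, a BH3-only protein, passed through BRCA1_ko alone, at 5.003, 3.21 and 4.09 in BRCA1_ko libraries, against 0.183, 0.526 and 0.311 in BRCA1_wt libraries. Of the 52 remaining pathway genes 3 rose, against 7.21% of all genes present in both groups, and 4 fell, against 4.73%. Mdm4, a second inhibitor of p53, was 49.2, 46.1 and 47.2 in BRCA1_ko libraries, against 7.07, 28.4 and 7.62 in BRCA1_wt libraries (log2 fold change 1.93 ± 0.49, adjusted p = 0.0452, limma). Again library 2 was the control nearest to BRCA1_ko. Bok was 10.1, 14.9 and 12.7 in BRCA1_ko libraries, against 54.3, 43.0 and 57.8 in BRCA1_wt libraries (log2 fold change -1.96 ± 0.24, adjusted p = 0.00496, limma). Its groups were far apart, and its call held with any 1 library left out but not with equal sums (-1.44, adjusted p = 0.0513). Bmf, another BH3-only protein, rose by 2.16 ± 0.47 (adjusted p = 0.0318), and Pidd1, a death-domain protein of the PIDDosome, fell by 1.60 (SE 0.26, adjusted p = 0.0126), all in limma. The calls of Mdm4 and Bmf were lost in each fit that left out a library other than BRCA1_wt library 2 (0.112 to 0.18 and 0.0738 to 0.144), and that of Pidd1 without BRCA1_ko library 1 or 3 or BRCA1_wt library 1 (0.0695 to 0.0974). Mki67 was 12.97, 29.4 and 7.65 in BRCA1_ko libraries, against 38.1, 41.0 and 47.4 in BRCA1_wt libraries (adjusted p = 0.0611, limma). The summed fibroblast and stroma markers were 891 to 1245 in BRCA1_ko libraries and 493 to 897 in BRCA1_wt libraries. The summed epithelial markers were 2106 to 2323 in BRCA1_ko libraries and 2274 to 2536 in BRCA1_wt libraries. Among the epithelial markers Krt7, Krt8, Krt18 and Wt1 had lower means in BRCA1_ko, and Krt19, Upk3b and Msln had higher means. The part of any of these in the p53 target values was not tested.

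By the root mean square difference in log2 fold change over 5 comparisons, among 9178 genes, the genes most like Trp53 were Exosc2 (0.0590), Ctnnbl1 (0.0634) and Xrcc1 (0.0752). Those most like Mdm2 were Fbxl18 (0.0532), Gpr180 (0.0746) and Ptpn11 (0.0819). Some of these comparisons share libraries, and the likeness is a description.

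All 10 are protein-coding genes on GRCm38: Trp53 on chromosome 11, 69580359 to 69591873; Mdm2 on 10, 117688875 to 117710758; Ccng1 on 11, 40748552 to 40755311; Plk2 on 13, 110395046 to 110400844; Bax on 7, 45461697 to 45466898. Bbc3 lies on 7, 16308393 to 16318205, Phlda3 on 1, 135766119 to 135769136, and Trp53inp1 on 4, 11156431 to 11174379. Eda2r lies on X, 97333840 to 97377216, and Zmat3 on 3, 32334792 to 32366014.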

How the data were processed

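RNA-seq values of 24 libraries in 8 groups were used as deposited. Per the submitters' processing notes, reads were handled with kallisto 0.44.0 and sleuth 0.30.0 on GRCm38. For each experiment the authors deposited a matrix of signal values named TPM, whose columns do not sum to 1000000, here called scaled TPM. Their result tables, also deposited by the authors, give every gene a p-value, a q-value and a natural log coefficient (converted to log2 here). The number of reads per library is unknown, so no counting interval is given, and the planned test for unscaled TPM was kept.

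Genes at 1 or more in at least 3 libraries of a table went into limma 3.58.1 (R 4.3.3; linear fit, empirical Bayes with a trend) on log2(scaled TPM + 1). All 12 libraries of the culture experiment shared 1 fit. Values after ± are SE for log2 fold changes and SD for levels. The method was tested on simulated data drawn with independent noise. Those data held no outlying library and no unequal scaling, so that test does not cover these features of the BRCA1 experiment. Identifiers matched GENCODE M21 for 98.1% to 98.2%. Python 3.11.15 with pandas 2.3.3 handled tables and the search of RefSeq promoters.

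The 10 genes, the pathway lists and the markers were chosen with earlier results of these data known, so agreement with them is not independent support. Named are all 10 genes and Cdkn1a in every comparison. Up to 3 called pathway genes per direction with the largest change are also named, except for TGFB1 spheroids against TGFB1 monolayers. Snai1, Brca1, Mki67 and the markers serve as checks. Other genes named with a call were chosen after their values were seen. Alternatives were another pseudocount, no filter, equal sums, quality weights, a replicate block, each library left out, only the 6 libraries compared and, chosen after seeing the data, scaling by median ratio and counting calls over genes at 1 or more in at least 1 library of each group compared.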

Additional observations from a re-analysis of the deposited data

Results flagged for a closer look

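The response to TGFB1 differed between spheroids and monolayers for 3 of the 10 genes by a test of the difference itself. Spheroid cells had TGFB1 before transfer, and the monolayer libraries but not the spheroid libraries are titled as re-analysed. Culture, treatment schedule and origin of the libraries therefore cannot be told apart here. The log2 effect in spheroids less the one in monolayers was 1.90 for Phlda3 (adjusted p = 0.000591, limma). For Bbc3 it was -0.82 (adjusted p = 0.0186, limma), and for Plk2 it was -3.28 (adjusted p = 0.0186, limma).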

How the results depend on the processing

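Of 30 called results for the 10 genes, 17 held in every alternative and 13 lost the call in at least 1, and of 40 uncalled ones 19 were called in at least 1. No called value changed sign, and the counts for both spheroid against monolayer comparisons stayed within 1.5 times. For TGFB1 in monolayers 4 genes were called, against 1 with no filter, 7 with quality weights, 2 with the replicate block and 0 to 1 with a library left out. For TGFB1 in spheroids 3 were called, against 5 with quality weights and 2 to 4 with a library left out. For the interaction 3 were called, against 6 with equal sums and 2 to 3 with a library left out. For Snail 1 was called, against 2 with quality weights, 0 with the replicate block and 0 to 1 with a library left out. For BRCA1 4 were called (Eda2r, whose direction the filter fixed, included), against 1 with no filter, 0 with equal sums, 10 with quality weights, 0 with the replicate block and 0 to 8 with a library left out. The cause of these changes was not tested. Same-numbered libraries deviated together with correlations of -0.32 to 0.33. With 3 libraries per group these values cannot decide if the numbers pair the samples.

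Over all genes, TGFB1 in monolayers gave 2284 calls, against 6431 with quality weights, 3585 with only the 6 libraries compared and 1234 to 1751 with a library left out. TGFB1 in spheroids gave 4810, against 2769 with only the 6 libraries compared. The interaction gave 2138, against 4385 with quality weights and 1402 without untreated monolayer 3. Snail gave 210, against 54 with no filter, 16 with the replicate block and 23 to 75 with a library left out. BRCA1 gave 1828, against 1091 with no filter, 818 with equal sums, 11536 with quality weights, 433 with the replicate block and 284 to 8420 with a library left out. Equal sums moved the median of all genes by -0.16 for TGFB1 in spheroids, -0.15 for spheroids with TGFB1, -0.20 for the interaction and 0.46 for BRCA1. The share of calls that were higher went with it, at 29.8% against 52.9% as deposited, 33.2% against 48.9%, 27.8% against 55.1% and 79.6% against 63.2%. Scaling by median ratio, chosen after seeing the data, moved no median by more than 0.04. Depth is unknown and 3 libraries per group limit every value.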
